A study of Mus musculus with 8 samples.

Results

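The genes described here are the 10 that encode the NF-kB subunits Nfkb1, Nfkb2, Rel, Rela and Relb, the inhibitors Nfkbia, Nfkbiz and Tnfaip3, and the kinases Ikbkb and Ikbke. They were chosen by name, and every probe that the array's annotation pairs with one of them by its current or an older symbol was taken. A probe was found for 9 of the 10, 1 each, and none was paired with Nfkb1. Rel was above background on 1 of 8 arrays and was left out of the tests, so 8 genes were tested among 9758 in all. Mouse preadipocytes of white fat, either wildtype or lacking Irf3, were cultured through differentiation, and total RNA of day 3, 5, 7 or 9 was hybridised to Illumina bead arrays, 1 for each genotype and day. All cultures had the same high-glucose medium with NCS, insulin and sodium ascorbate, and no further treatment is listed. The depot, the strain, sex, age and number of the mice, the deleted segment of Irf3, and whether the 4 days of a genotype share a culture are not given in the sources used here.

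NF-kB is a family of dimeric transcription factors that switch on inflammatory, survival and feedback genes. In resting cells the dimers are held in the cytoplasm by inhibitors such as the product of Nfkbia, and signals from receptors for TNF, interleukin 1 and microbial products activate kinases that mark the inhibitor for destruction. Several genes of the pathway are themselves NF-kB targets, which gives the response its feedback. Irf3 is activated beside NF-kB downstream of microbial sensors, and in adipose tissue NF-kB activity is best known from obesity-related inflammation of adipocytes and macrophages.

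A detection p-value, which compares a probe with the negative controls of its own array, called 47.6% to 52.2% of the 25697 probes above background at a p under 0.05. The mean raw intensity was 638 on the wildtype day 3 array and 891 to 1026 on the other 7, and the arrays were brought to 1 scale before any comparison. Levels below are background-corrected log2 intensities. They compare arrays for 1 gene and do not rank genes by abundance. The brightest Irf3 probe averaged 11.23 in wildtype and 10.73 in knockout, a difference of -0.50 ± 0.17 (SE of the limma fit to 4 daily differences, adjusted p = 0.166). Another Irf3 probe read 8.12 to 8.33 in wildtype and 7.30 to 8.03 in knockout. Its difference was -0.62 ± 0.15 (limma over all kept probes, adjusted p = 0.0752), and that of a further probe -0.31 ± 0.19 (adjusted p = 0.431). Since the deleted segment is not given, these values do not check the labels. Of 9 measured preadipocyte markers, 8 were above background on every array. With day, 10 of 12 mature adipocyte markers and 15 of 17 macrophage markers rose, with median slopes of 0.68 and 0.61 log2 units per day. Macrophage markers moved with genotype. All 17 that were measured stood higher in knockout and 12 were called, with a median log2 difference of 1.98, and 14 of the 17 were above background on all 8 arrays. Their summed linear intensity ran from 4419 to 50398 over the wildtype arrays and from 17072 to 129895 over the knockout arrays. Cd68, Csf1r and Mpeg1 were on that list but not among the tested genes. Mature adipocyte markers had a median difference of 1.54, with 3 of 12 called higher and sums of 27611 to 64751 in wildtype and 30990 to 108133 in knockout. Only 5 of these 12 were above background on all 8 arrays, so their medians include values not above background. Of 4 measured mesothelial markers 2 were lower in knockout and 2 fell with day, with a median difference of -0.86 and a median slope of -0.46, and their sum was 531 to 5881 in wildtype and 250 to 3531 in knockout. These 4 were Krt8, Krt18, Krt19 and Wt1, and 2 of them were above background on all 8 arrays. Msln, Upk3b and Lrrn4 were on that list but not among the tested genes. None of 7 endothelial markers was called for genotype, all 7 estimates were below 0 with a median of -0.35, and 3 fell with day. Of 4 skeletal muscle markers 1 was called higher in knockout and 3 fell with day. All 4 genotype estimates were above 0, with a median of 0.54. Their sum was 2091 to 3911 in wildtype and 3852 to 10896 in knockout. In such bulk samples a change in the share of a cell type and a change of RNA per cell cannot be told apart, and the part of these cell types in the values below was not tested.

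The NF-kB genes differed little between the genotypes. None of the 8 tested genes was called by limma (adjusted p under 0.05 over all 9758 genes), against 473 of all genes, 4.85%, of which 2.74% were higher and 2.11% lower in knockout. At that background a set of 8 need hold no called gene, so the count of 0 does not set these genes apart. The count of 473 itself became 1082 with day 3 left out, 199 with day 5, 182 with day 7 and 161 with day 9. At an unadjusted p under 0.05 there was 1 of the 8, Nfkbiz, against 20.3% of all genes. The median difference, knockout minus wildtype, was -0.09 on the log2 scale over the 8 genes and -0.02 over all genes, and the median size of the difference, regardless of sign, was 0.12 and 0.19. The intervals show how much change remains possible. For each of the 8 genes the 95% interval of the difference lay inside a 2-fold change either way, as it did for 83.5% of all genes. The wildtype and knockout arrays overlapped for all 8, while 5.82% of all genes had groups that did not. On no single day, with 1 array against 1 and no test, was any of the 8 genes 2-fold apart, against 20.1% of all genes on at least 1 day and 5.46%, 9.01%, 10.8% and 9.28% on days 3, 5, 7 and 9.

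**Figure D1:**
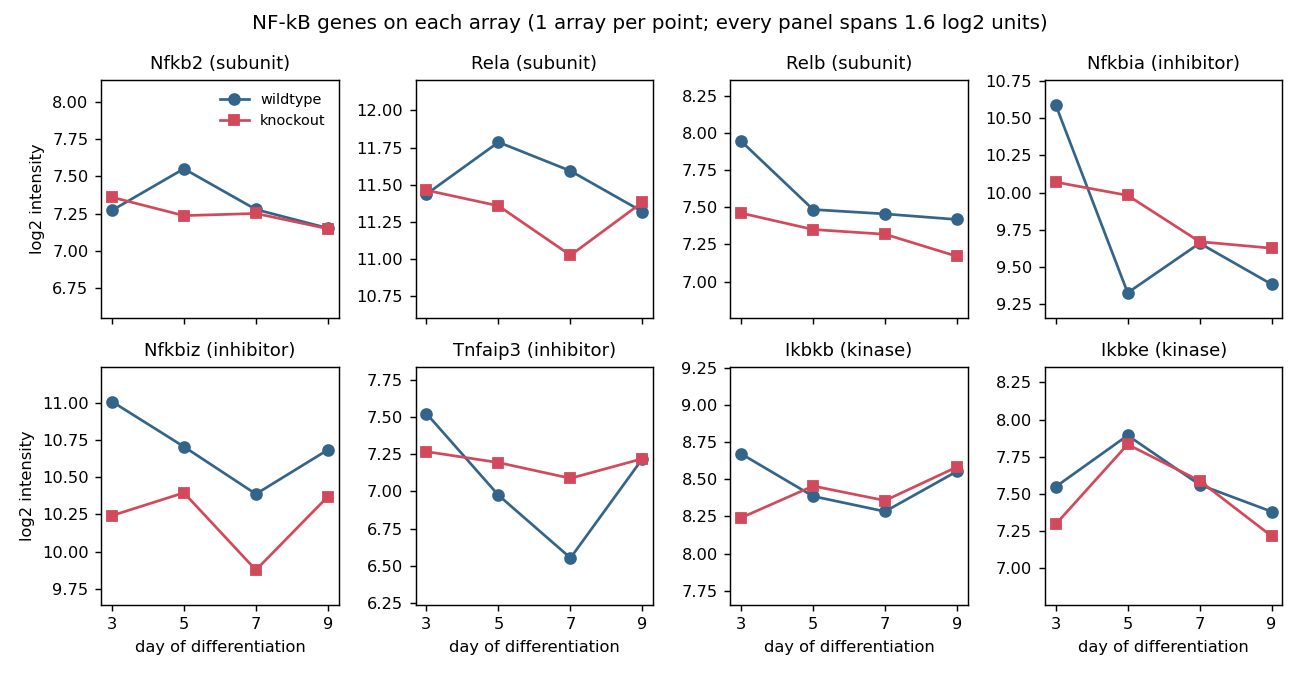
Log2 intensity of the 8 tested NF-kB genes (vertical axis) on days 3, 5, 7 and 9 of differentiation (horizontal axis), 1 array per point, wildtype as circles and knockout as squares. Every panel spans the same height, so steepness can be compared between panels, and the wildtype point of day 3 is the highest of the 8 for Relb, Nfkbia, Nfkbiz, Tnfaip3 and Ikbkb.

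**Figure D2:**
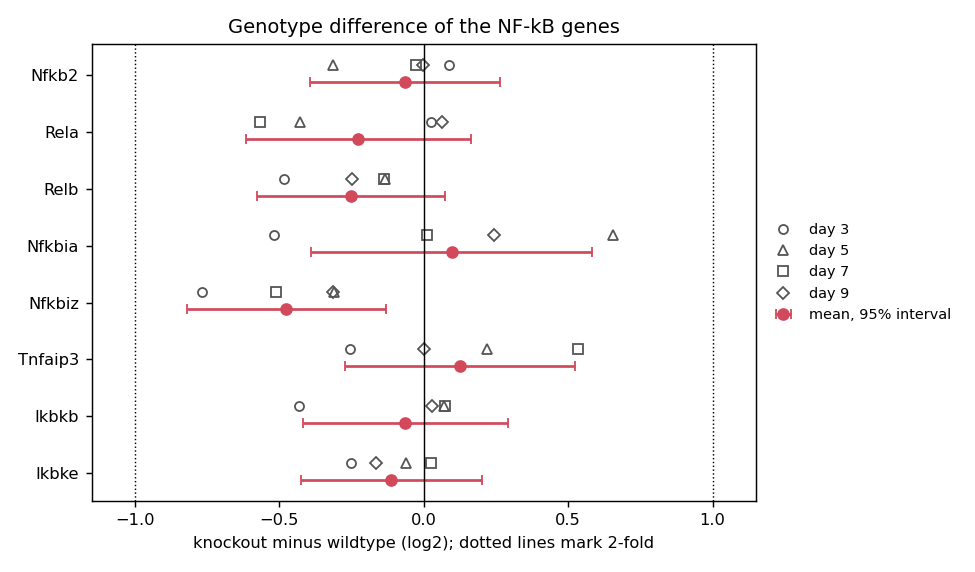
Knockout minus wildtype on the log2 scale (horizontal axis) for each gene, with open symbols for the 4 days and a filled point with bars for the mean and its 95% interval from the limma fit. All 8 intervals lie between the dotted lines that mark a 2-fold change, and that of Nfkbiz, from -0.82 to -0.13, is the only one of the 8 that leaves out 0.

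Among the DNA-binding subunits, Rela, the main activating partner of the classical dimer, read 11.44, 11.79, 11.59 and 11.32 in wildtype on days 3, 5, 7 and 9 and 11.46, 11.36, 11.03 and 11.38 in knockout. Knockout minus wildtype was -0.43 and -0.57 on days 5 and 7, and the arrays of days 3 and 9 were close together. The mean difference was -0.23 ± 0.16 (95% interval -0.62 to 0.16, adjusted p = 0.513) and was not called. Relb, the subunit of the alternative pathway, read 7.94, 7.48, 7.45 and 7.42 in wildtype and 7.46, 7.35, 7.32 and 7.17 in knockout. It was lower in knockout on 4 of 4 days, as 26.8% of all genes kept 1 sign on all 4 days, but the groups overlapped and the difference of -0.25 ± 0.14 was not called (interval -0.58 to 0.08, adjusted p = 0.366). Nfkb2, whose product is a precursor that is processed to the DNA-binding partner of Relb, was the flattest of the 8, with values from 7.15 to 7.55. Its wildtype arrays read 7.27, 7.55, 7.28 and 7.15 and its knockout arrays 7.36, 7.24, 7.25 and 7.15, a difference of -0.06 ± 0.14 (interval -0.39 to 0.26, adjusted p = 0.851). Rel, the subunit known from lymphoid and myeloid cells, had raw intensities from 136.9 to 179.6 with detection p-values from 0.0338 to 0.811, and the 1 array above background was wildtype day 3. Rel was not above background on the other 7, and no difference is given for it.

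The inhibitors held the largest variation. Nfkbiz, an inhibitor-like nuclear protein that acts as a cofactor for a subset of NF-kB targets, read 11.01, 10.71, 10.39 and 10.68 in wildtype and 10.24, 10.40, 9.88 and 10.37 in knockout. Each knockout array was lower than the wildtype array of its day, with differences of -0.77, -0.31, -0.51 and -0.31, although the highest knockout value of 10.40 stood just above the lowest wildtype value of 10.39. The mean difference was -0.48 ± 0.14, or 1.39-fold lower, with an unadjusted p of 0.0137 that did not pass after adjustment (adjusted p = 0.128). Its size was larger than that of 82.3% of all genes. Over the alternatives it ranged from -0.53 to -0.36 and its adjusted p from 0.0529 to 0.419. Macrophage markers lay the other way in these cultures. Mesothelial and endothelial markers lay mostly the same way as Nfkbiz, with medians of -0.86 and -0.35, and their part was not tested.

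Nfkbia, the classical inhibitor and a feedback target of NF-kB, had the widest spread of the 8 genes. It read 10.59, 9.33, 9.66 and 9.38 in wildtype and 10.07, 9.98, 9.67 and 9.63 in knockout. The wildtype array of day 3 stood alone at the top, and from day 3 to day 5 wildtype differed by -1.26 where knockout differed by -0.09. That wildtype step was the 1 step among the 8 genes that reached 2-fold between these days, against 11.6% of all genes in wildtype and 7.84% in knockout. Knockout minus wildtype was -0.52 on day 3 and 0.65 on day 5, and the mean difference of 0.10 ± 0.20 was not called (interval -0.39 to 0.58, adjusted p = 0.847). Without day 5 it was -0.089. Tnfaip3, a ubiquitin-editing enzyme that ends NF-kB signalling and is itself induced by it, read 7.52, 6.97, 6.55 and 7.22 in wildtype and 7.27, 7.19, 7.09 and 7.22 in knockout. Wildtype dipped to its lowest value on day 7, where knockout was higher by 0.54, and on day 9 both arrays read 7.22. The mean difference was 0.12 ± 0.17 (interval -0.27 to 0.52, adjusted p = 0.745), and -0.012 without day 7.

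Of the kinases, Ikbkb, the catalytic kinase that phosphorylates the inhibitor in the classical pathway, read 8.67, 8.39, 8.28 and 8.55 in wildtype and 8.24, 8.45, 8.36 and 8.58 in knockout. Beyond day 3, where the difference was -0.43, the daily differences were 0.07, 0.07 and 0.03, and the mean was -0.06 ± 0.15 (interval -0.42 to 0.29, adjusted p = 0.861). Ikbke, the inducible kinase related to Tbk1 that can phosphorylate Irf3, read 7.55, 7.89, 7.56 and 7.38 in wildtype and 7.30, 7.83, 7.59 and 7.22 in knockout. Both genotypes had their highest value on day 5, and the difference of -0.11 ± 0.13 was not called (interval -0.43 to 0.20, adjusted p = 0.704).

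Promoter windows from RefSeq on build GRCm38.p6 were found for 6 of the 10 genes, Nfkb2, Rel, Rela, Nfkbia, Tnfaip3 and Ikbke, in 9 windows, and the 250 bases before each start were searched on both strands. A loose kappa B motif, GGG followed by any 5 bases and CC, occurred in 5 of these 6 genes and in 48.65% of all 27025 genes searched. The narrower NF-kB consensus, chosen after the loose motif had been counted and with every match also a match of that motif, occurred in Nfkb2, Rel, Nfkbia and Tnfaip3, which is 4 of 6, and in 8.23% of all genes. By window it was in 6 of 9 and in 7.25% of all 32851 windows. The element that interferon regulatory factors recognise, GAAA repeated after any 2 bases, was in none of the 6 genes and in 3.46% of all genes. The sequences below are shown because they put the feedback inhibitors Nfkbia and Tnfaip3 and the subunit gene Rel beside Cxcl1 and Cxcl10, chemokine genes with the same motif that were lower in knockout. Nfkbid, which was higher in knockout, also holds it. Capitals mark the narrow consensus and, nearest the start of the Cxcl10 sequence, the element of interferon regulatory factors. Each runs 5′ to 3′ on the gene's strand and ends at the base before the annotated start.
Nfkbia, chr12:55492648-55492897, minus strand: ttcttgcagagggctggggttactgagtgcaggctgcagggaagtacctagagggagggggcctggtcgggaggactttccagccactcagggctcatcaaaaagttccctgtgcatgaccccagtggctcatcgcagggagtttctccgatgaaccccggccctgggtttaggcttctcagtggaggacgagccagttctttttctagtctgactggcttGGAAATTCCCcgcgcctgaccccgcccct
Tnfaip3, chr10:19015411-19015660, minus strand: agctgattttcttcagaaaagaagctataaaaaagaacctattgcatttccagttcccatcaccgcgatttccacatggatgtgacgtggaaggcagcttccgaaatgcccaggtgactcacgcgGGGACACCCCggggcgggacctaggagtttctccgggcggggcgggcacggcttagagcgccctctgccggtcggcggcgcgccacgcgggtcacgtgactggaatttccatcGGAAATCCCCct
Rel, chr11:23770970-23771219, minus strand: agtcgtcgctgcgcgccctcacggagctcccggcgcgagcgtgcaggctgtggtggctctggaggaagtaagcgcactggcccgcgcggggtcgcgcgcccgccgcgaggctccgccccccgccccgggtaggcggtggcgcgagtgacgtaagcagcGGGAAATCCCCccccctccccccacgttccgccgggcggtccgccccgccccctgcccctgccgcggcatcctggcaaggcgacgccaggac
Cxcl1, chr5:90890995-90891244, plus strand: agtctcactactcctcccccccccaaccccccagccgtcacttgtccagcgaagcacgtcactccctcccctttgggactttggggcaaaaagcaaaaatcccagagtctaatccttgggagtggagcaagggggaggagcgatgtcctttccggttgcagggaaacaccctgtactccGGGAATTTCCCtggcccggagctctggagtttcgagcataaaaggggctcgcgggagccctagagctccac
Cxcl10, chr5:92348890-92349139, minus strand: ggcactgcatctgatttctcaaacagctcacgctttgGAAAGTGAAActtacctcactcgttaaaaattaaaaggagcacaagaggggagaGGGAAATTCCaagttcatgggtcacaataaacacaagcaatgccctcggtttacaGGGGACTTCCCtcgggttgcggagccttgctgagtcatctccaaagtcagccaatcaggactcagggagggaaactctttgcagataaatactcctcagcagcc
The Nfkbia match lies at bases -29 to -20 from the start and the Tnfaip3 matches at -125 to -116 and -12 to -3. The Rel matches overlap between -92 and -82, and the Cxcl1 matches between -71 and -61. These are matches of letters and do not show that a factor binds there.

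With day, none of the 8 genes was called over both genotypes, against 1638 of 9758 genes, 16.8%, with 8.54% rising and 8.25% falling. The 1638 became 189 with day 3 left out, 820 with day 7 and 726 with day 9, and 408 and 916 with the knockout array of day 3 or the wildtype array of day 9 left out. At an unadjusted p under 0.05 there was 1 of the 8, Nfkbia, against 32.7% of all genes. The slope, the change of log2 intensity per day, was below 0 for 7 of the 8, with a median of -0.03 per day against -0.01 over all genes. Nfkbia had the steepest, -0.12 ± 0.05 per day (interval -0.23 to -0.01, adjusted p = 0.111), and Relb followed with -0.06 ± 0.03 (adjusted p = 0.179). Single arrays moved both slopes. With wildtype day 3 left out, Nfkbia stood at -0.055 per day (adjusted p = 0.383) and Relb at -0.037 (adjusted p = 0.458), and with day 3 of both genotypes left out at -0.037 (adjusted p = 0.782) and -0.031 (adjusted p = 0.780). Only with wildtype day 5 left out, among the alternatives run, was Nfkbia called (-0.14 per day, adjusted p = 0.0355). Between days 3 and 9 the wildtype level of Nfkbia differed by -1.21 and that of Relb by -0.53, and the knockout levels by -0.44 and -0.29. Ikbkb was the 1 gene with a slope above 0, at 0.01 ± 0.03 per day. For the other 5 genes the slope lay between -0.04 and -0.03 per day, with adjusted p-values from 0.507 to 0.630.

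The slopes of the genotypes were then compared within 1 fit. For Nfkbia the slope was -0.16 ± 0.07 per day in wildtype and -0.08 ± 0.07 in knockout, a difference of 0.08 (interval -0.14 to 0.31, adjusted p = 0.945). For Nfkbiz it was -0.06 ± 0.06 and -0.01 ± 0.06, and for Tnfaip3 -0.07 ± 0.07 and -0.01 ± 0.07. Ikbkb had the smallest p of the 8, with -0.02 ± 0.05 per day in wildtype and 0.05 ± 0.05 in knockout (unadjusted p = 0.323). No gene of the 9758 was called in this limma test, and 6.1% had an unadjusted p under 0.05, none of them among the 8.

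**Figure D3:**
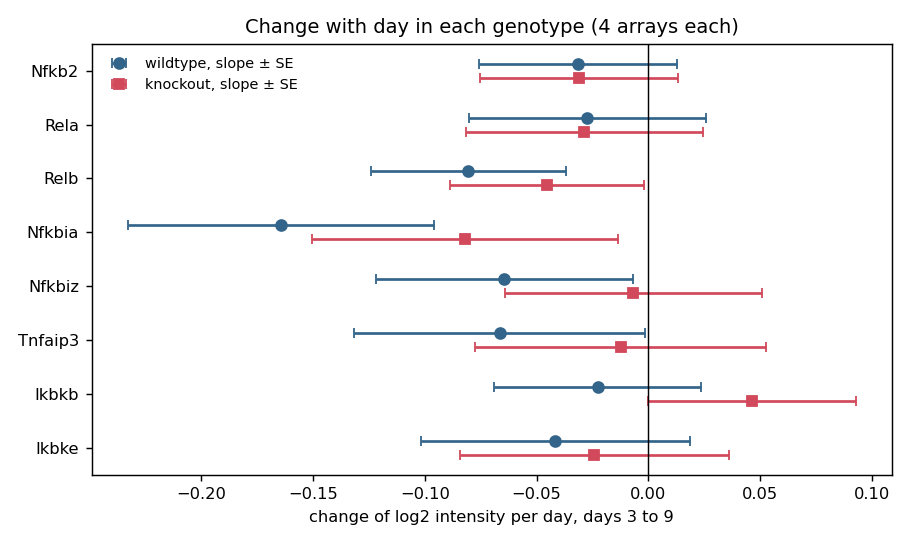
Change of log2 intensity per day (horizontal axis) for each gene in wildtype (circles) and knockout (squares), 4 arrays each, with bars of 1 SE from the limma interaction fit. The bars of wildtype and knockout overlap for all 8 genes, and Ikbkb has its slopes on either side of 0, -0.02 in wildtype and 0.05 per day in knockout.

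The wildtype array of day 3 carried the highest value of 5 of the 8 genes, Relb, Nfkbia, Nfkbiz, Tnfaip3 and Ikbkb, against 20.9% of all genes. That array also carried the lowest value of 20.5% of all genes, more than any other array, and of none of the 8. The wildtype array of day 5 carried the highest value of the other 3, Nfkb2, Rela and Ikbke, against 16.6% of all genes. The highest value of none of the 8 lay on a knockout array, against 45.7% of all genes. These positions depend on the normalization. On the deposited processed values Tnfaip3 was highest on knockout day 9, at 125.3 against 123.4 on wildtype day 3. Ikbke was highest there on knockout day 5, at 179.6 against 175.0 on wildtype day 5. Ikbkb was highest there on wildtype day 9, at 310.4 against 287.1 on wildtype day 3. The wildtype day 3 array is also the one with the lowest raw intensity, 638 on average, and its percentage of probes above background, 50.5%, lay within the range of the others. As 1 array it has no replicate, and the part of its lower raw intensity was not tested. The SD over the 8 arrays was 0.41 for Nfkbia, 0.34 for Nfkbiz, 0.28 for Tnfaip3 and 0.13 for Nfkb2, and its median over the 8 genes was 0.23 against 0.34 over all genes.

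The genes with the most similar profiles were sought for Nfkbia and Nfkbiz, the pair with the largest SD. After each gene's mean was subtracted, Gart, an enzyme of purine synthesis, differed from Nfkbia by a root mean square of 0.09 log2 units over the 8 arrays, Ccne2, a cyclin of the start of DNA replication, by 0.10 and Tmcc2 by 0.13. Gart read 10.51, 9.36, 9.54 and 9.42 in wildtype and 10.08, 9.89, 9.83 and 9.50 in knockout, with the same single high array as Nfkbia. The closest to Nfkbiz were Trim25, a ubiquitin ligase of antiviral signalling, at 0.07, Prkar1b, a regulatory subunit of protein kinase A, at 0.11 and Slc7a6os at 0.12. Trim25 was above background on 5 of 8 arrays and Tmcc2 on 7. These distances describe 8 arrays that share 1 normalization, and carry no test.

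The remaining genes of the pathway were taken from a list of 53 receptors, adaptors, kinases, ubiquitin enzymes and further inhibitors, of which 42 were measured. For genotype 2 rose and none fell, 4.76% against 4.85% of all genes, and the median difference was -0.03. Tnfrsf11a, the receptor RANK, read 5.33, 5.02, 5.80 and 6.35 in wildtype and 6.33, 6.36, 7.15 and 8.38 in knockout. It was higher in knockout on each day and above background on 2 of 4 wildtype arrays, and the fitted difference of 1.43 ± 0.19 passed (adjusted p = 0.00925). That size includes 2 wildtype values not above background. Without background correction it was 0.60 (adjusted p = 0.0406), and on the deposited processed values it was not called (1.67, adjusted p = 0.0858). With the genes that are constant in those values left out, it was called there (adjusted p = 0.0147). Nfkbid, an atypical nuclear inhibitor of the family of Nfkbiz, read 6.18, 6.09, 6.39 and 6.73 in wildtype and 7.03, 6.96, 6.99 and 7.45 in knockout. Its groups did not overlap, and it rose by 0.76 ± 0.13 (adjusted p = 0.0259), a call that it lost without day 5, 7 or 9 (adjusted p from 0.0917 to 0.116). Without background correction Nfkbid stood at 0.33 (adjusted p = 0.0741). Map3k14, the kinase NIK of the alternative pathway, was next by p at -0.45 ± 0.15 (adjusted p = 0.166). Macrophage and mature adipocyte markers were also higher in the same knockout cultures, with medians of 1.98 and 1.54. Their part in these values was not tested. Of the other inhibitors on that list, Nfkbib stood at 0.55 ± 0.26 (adjusted p = 0.299) and Nfkbie at -0.17 ± 0.13 (adjusted p = 0.561). Ikbkg stood at -0.14 ± 0.16 (adjusted p = 0.697) and the kinase gene Tbk1 at 0.01 ± 0.16 (adjusted p = 0.973).

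With day, 1 of the 42 rose and 2 fell, 7.14% against 16.8% of all genes. Tnfrsf11a rose by 0.27 ± 0.06 per day (adjusted p = 0.0146). In the same cultures 15 of 17 macrophage markers and 10 of 12 mature adipocyte markers rose with day, and their part was not tested. Bcl3, a nuclear partner of the Nfkb1 and Nfkb2 products, fell by 0.24 per day (SE 0.05, adjusted p = 0.0209). It read 8.89, 8.62, 7.47 and 8.02 in wildtype and 9.10, 8.18, 7.46 and 7.44 in knockout. Myd88, the adaptor of Toll-like and interleukin 1 receptors, fell by 0.12 per day (SE 0.03, adjusted p = 0.0384). Single arrays decided each of these 3 calls. With knockout day 3 left out the adjusted p was 0.0674 for Tnfrsf11a, 0.125 for Bcl3 and 0.187 for Myd88, and with knockout day 9 left out it was 0.0528, 0.0529 and 0.0991. Bcl3 was also not called when wildtype day 3 was left out (0.0521). Myd88 lost it without any 1 knockout array and without the wildtype arrays of day 7 and day 9 (adjusted p from 0.0612 to 0.187).

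Among target genes of NF-kB the median size of the genotype difference was 0.52, against 0.19 over all genes. Of a list of 40 well-known targets 29 were measured, and for genotype 1 rose and 6 fell, 24.1% of the list against 4.85% of all genes. The median difference was -0.42 against -0.02, and 23 of 29 estimates lay below 0 against 5154 of 9758. The median was -0.42, -0.46, -0.47 and -0.43 on days 3, 5, 7 and 9. The list was chosen with earlier results of these arrays known. Its direction, the size of its differences and its share of called genes are therefore not independent evidence. Ccl5, a chemokine for T cells and monocytes that interferon regulatory factors also induce, read 9.05, 7.86, 8.28 and 8.64 in wildtype and 6.96, 5.03, 5.11 and 5.22 in knockout. The groups were far apart, and Ccl5 was above background on 1 of 4 knockout arrays. The fitted difference was -2.88 ± 0.23 (adjusted p = 0.00132), a size that includes 3 knockout values not above background, and without background correction it was -1.40 (adjusted p = 0.000358). Cxcl10, the interferon-inducible chemokine whose promoter is printed above, read 6.04, 7.51, 7.91 and 6.62 in wildtype and was not above background on any knockout array, so it was at least 2.62-fold lower on the background-corrected scale (adjusted p = 0.0197). Without background correction the difference was -0.76 on the log2 scale (adjusted p = 0.0289), smaller than that bound. With day 5 or day 9 left out it no longer passed (adjusted p = 0.0816 and 0.0632).

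Cxcl5 and Cxcl1, chemokines that attract neutrophils, were called for both genotype and day. Of the 4 mesothelial markers 2 were lower in knockout and 2 fell with day, and their part was not tested. Cxcl5 read 11.15, 10.25, 9.03 and 8.70 in wildtype and 10.12, 8.72, 7.05 and 7.25 in knockout, lower on each day in knockout by -1.50 ± 0.18 (adjusted p = 0.00655). Cxcl1 read 11.91, 10.44, 9.02 and 8.78 in wildtype and 11.10, 9.08, 7.09 and 7.70 in knockout, a difference of -1.30 ± 0.20 (adjusted p = 0.0175) that was not called without day 5, 7 or 9 (adjusted p from 0.0528 to 0.0763). Mmp9, a gelatinase of inflamed tissue, stood at -0.71 ± 0.14 (adjusted p = 0.0360) and lost its call without day 5, 7 or 9 (adjusted p from 0.102 to 0.182). The last of the 6, named after its values were seen, was Csf1, the growth factor of macrophages, at -0.78 ± 0.16 (adjusted p = 0.0438), with the call lost without the same days (adjusted p from 0.0961 to 0.174). Tnf, the cytokine that activates the classical pathway, was called the other way, with a fitted difference of 0.97 ± 0.18 (adjusted p = 0.0312). It was above background on 2 wildtype and 3 knockout arrays, so the size includes values not measured above background. In the deposited processed values it is at the floor of 20 on all 8 arrays, which does not reflect its brightness. On knockout day 7 Tnf had a raw intensity of 304.6, and Mmp9, at 299.9, has a processed value of 96.3. Tnf stood at 0.36 without background correction (adjusted p = 0.0748), and lost its call without day 5, 7 or 9 (adjusted p from 0.127 to 0.137). Macrophage and mature adipocyte markers were also higher in knockout by their medians, and their part in the Tnf values was not tested. The count of 7 called targets became 9 with day 3 left out, 2 with day 5, 3 with day 7 and 2 with day 9, and on the deposited processed values it was 0, or 4 with the genes that are constant there left out.

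**Figure D4:**
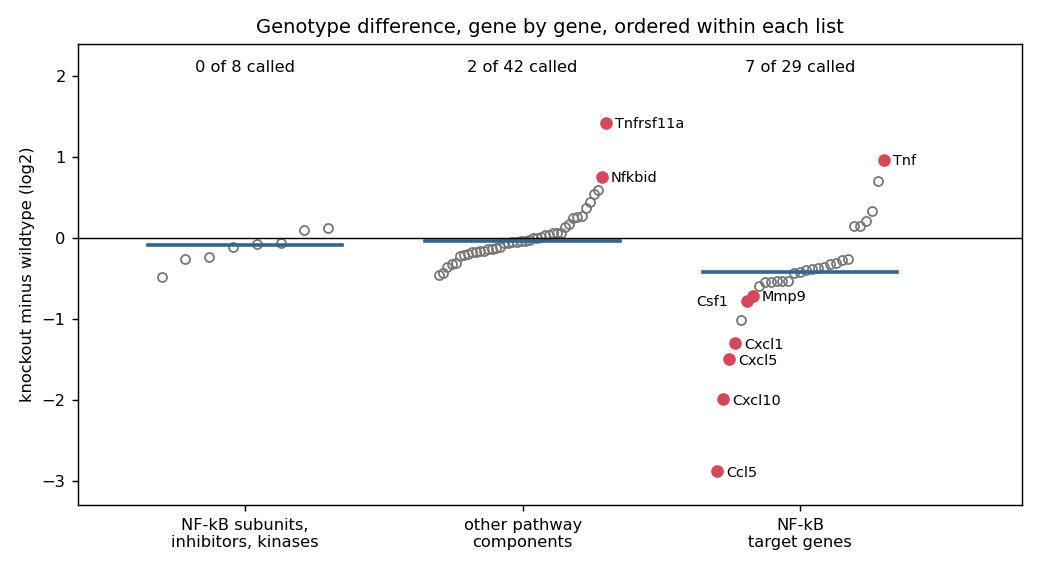
Knockout minus wildtype on the log2 scale (vertical axis) for each measured gene of 3 lists, ordered by value within a list, with filled named points for adjusted p under 0.05 and a bar at the list's median. The 8 NF-kB genes lie between -0.48 and 0.12 with none called, the 42 other components have 2 called and a median of -0.03, and the 29 targets have 7 called and a median of -0.42. The lists were chosen with earlier results of these arrays known.

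With day, 2 of the 29 targets rose and 4 fell, 20.7% against 16.8% of all genes. Cxcl1 fell by 0.58 per day (SE 0.09, adjusted p = 0.00482) and Cxcl5 by 0.47 per day (SE 0.06, adjusted p = 0.00262). Junb, a subunit of AP-1, fell by 0.13 per day (SE 0.04, adjusted p = 0.0384), a call that it lost without any 1 of the 8 arrays (adjusted p from 0.0518 to 0.131). Selp, the adhesion molecule P-selectin, had a slope of -0.28 ± 0.07 per day (adjusted p = 0.0301), but was above background on day 3 of each genotype and on no other array. Its call was lost without either array of day 3 (adjusted p = 0.0774 for wildtype and 0.129 for knockout), without either array of day 7, and without the wildtype array of day 9 (0.0892). Tnf rose by 0.23 ± 0.04 per day (adjusted p = 0.00952) and Il15, a cytokine for natural killer and memory T cells, by 0.28 ± 0.06 (adjusted p = 0.0118), and without the knockout array of day 3 these were no longer called (0.0691 and 0.0760). Tnf was not above background on wildtype days 3 and 5 and knockout day 3. Without background correction its slope was 0.083 per day (adjusted p = 0.0292). All calls among the targets were lost when day 3 was left out of both genotypes, and 2 remained in number without the knockout array of day 3.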

How the data were processed

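The authors deposited a table of raw bead intensity per probe with a detection p-value beside each value, per the file headers, and a matrix of processed intensity with a floor of 20 for which the sources used here name no normalization. Labelling used biotinylated cRNA, per the labels' protocols. The raw table was the main source. With limma 3.58.1 in R 4.3.3, the neqc function estimated background through the detection p-values, and log2 values were taken after quantile normalization with an offset of 16. A probe stayed in if its detection p was under 0.05 on 2 or more of the 8 arrays (14232 of 25697). Of all probes 23978 had 1 gene symbol, none had several and 1719 had none, and 23962 were updated through their gene identifier to names of GRCm38.p6. The brightest kept probe stood for a gene, which gave 9758 genes.

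Genotype was fitted with day as a factor (3 residual degrees of freedom), so that the 4 daily differences were the repeats. Their spread may be technical or a true change with day. The p-values rest on that spread after limma has drawn it towards the spread of all genes (3.91 prior degrees of freedom). No other variation enters them. The slope over days was fitted with genotype as a term (5), and the difference in slope as an interaction (4). Tests were two-sided moderated limma tests with Benjamini-Hochberg adjustment over all genes. Errors are standard errors of the fits, and the number of arrays limits the precision. The fits were tested on simulated data. Of 100 genes given a genotype change of 1 log2 unit 47 were called, and 98 of 100 given 2 units. Of as many genes given a slope of 0.15 per day 19 were called, and 90 of those given 0.3. Among the called genes 7.05% were false for genotype and 5.22% for day. Alternatives changed the background correction, scaling, source of values, filter, probe choice, variance prior and day term, and left out days or arrays.

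The members and lists were chosen with earlier results of these data known. From each list and comparison the called genes were named, up to 5 per direction with the smallest p, or the 3 with the smallest p where fewer than 3 were called, along with Irf3 and, for the pair of members with the largest SD, the 3 genes with the closest profiles. Genes of the lists named beyond this rule (Csf1, Nfkbib, Nfkbie, Ikbkg and Tbk1) were chosen after their values were seen.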

Additional observations from a re-analysis of the deposited data

How the results depend on the processing

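No alternative called any of the NF-kB genes for genotype, and leaving out single arrays called between 0 and 1 of them for day. Of 104 alternative values for their genotype differences 98 kept the direction and side of the threshold and 6 changed sign, all for genes whose difference was near 0. With median scaling Ikbkb stood at 0.025 and Nfkb2 at 0.020. Leaving out a day gave -0.11 to 0.057 for Ikbkb, -0.12 to 0.019 for Nfkb2, -0.089 to 0.30 for Nfkbia and -0.012 to 0.25 for Tnfaip3. Of 160 values for the slopes 12 changed sign. On the deposited processed values, with or without the 447 genes constant there, the slope per day was 0.0018 for Ikbke, 0.0036 for Nfkb2 and 0.015 for Tnfaip3, and leaving out days or arrays gave -0.034 to 0.045 for Ikbkb, -0.14 to 0.038 for Ikbke and -0.14 to 0.034 for Tnfaip3. The causes were not tested.

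The 473 genes called for genotype became 93 on the deposited processed values, and 375 there without the constant genes. They became 115 with no day term, 771 with a trended and robust prior, and 161 to 1082 with a day left out. The 1638 called for day became 189 to 1662 with days or arrays left out. The 0 called for a difference in slope became 2 without background correction and 1 with the trended and robust prior. Of the other pathway components, the 2 called for genotype became 1 on the processed values and stayed 2 there without the constant genes. They became 1 with probes detected on all 8 arrays and 1 without background correction. With no day term the count was 0, and with a day left out it was 1 to 3. The 3 called for day became 5 without background correction and 0 to 4 with days or arrays left out. Of the targets, the 7 called for genotype became 0 on the processed values (4 without constant genes), 2 with no day term and 2 to 9 with a day left out, and the 6 called for day became 3 on the processed values and 0 to 7 with days or arrays left out. Of 111 alternative values for the genotype differences of the other called genes 38 lost their call and none changed sign, and of 175 for their slopes 52 lost it and none changed sign. The probe of Rel was too dim, and the quantile step fixes the distribution of each array, so a shift of all genes cannot be seen. The genotype fit pairs the arrays by day, and the fit with no day term is its unpaired counterpart.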
